A study of Mus musculus with 45 samples.

Results

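The Cyp3a genes of the mouse encode cytochrome P450 monooxygenases of the endoplasmic reticulum. They were followed here through the liver, kidney and brain of mice fed a high-cholesterol diet with or without Ganoderma lucidum extracts or simvastatin. The 9 genes named by the rule were Cyp3a11, Cyp3a13, Cyp3a16, Cyp3a25, Cyp3a41a, Cyp3a41b, Cyp3a44, Cyp3a57 and Cyp3a59, and 8 of them had a row among the 22080 genes of the expression table. Cyp3a41a had no row and was not analysed here. The rule lists the genes by symbol and uses no measured value, but the family was picked with earlier results of these data known.

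Male C57BL/6 mice, 7 weeks old, were kept in groups of 8 on 5 diets. Control mice ate the AIN-93 standard diet, and HCD mice ate it with 0.5% cholesterol. Both HCD+Gl groups received the cholesterol diet with 1% of a hydroalcoholic Ganoderma lucidum extract, Gl-1 or Gl-2, the Gl-2 mushrooms having been grown on oak sawdust with 10 mM acetylsalicylic acid. HCD+Sim mice received it with simvastatin at 0.03 g per 100 g. All groups other than Control therefore carried the cholesterol load, and all mice were sacrificed on day 43 after an 8 h fast. Each group of a tissue had 3 Affymetrix mouse gene arrays, 45 in all. By the paper's methods, A and B held pools of 4 different mice each and C held both pools mixed. On that plan 3 arrays rested on 2 separate pools, and p-values measure the spread between such arrays.

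Free-text notes of the liver samples name another tissue than their titles, so tissue was checked on markers. The lowest liver array lay above every kidney and brain array in 7 of 7 liver marker genes, with the same result in 7 of 7 kidney and 7 of 7 brain markers for their own tissues. Array medians ran from 6.76 to 6.92 on the log2 scale, and arrays of a group correlated at 0.985 to 0.997. Some liver arrays stood apart in markers of other tissues. The mean of 15 pancreas acinar genes was 7.22 and 7.75 in HCD+Sim arrays A and B, against 5.91 to 6.15 on the 13 other liver arrays, and the mean of 10 skeletal muscle genes was 7.55 and 7.97 there, against 6.20 to 7.04. The mean of 12 immediate early genes was 8.55 and 8.98 in HCD+Gl-2 arrays A and C, against 6.95 to 7.48 on the other liver arrays. HCD+Sim array C read 6.15 for pancreas and 6.50 for muscle, below both A and B. HCD+Gl-2 array C lay above both A and B (7.21) in immediate early genes. These C arrays lay outside the range of the pools they should mix, and the cause was not tested. Among the 5 liver groups, C lay between A and B in 1 for Cyp3a41b and in 1 for Cyp3a44.

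Enzymes of this family oxidise steroids, bile acids and a large share of drugs, among them many statins. Hepatocytes switch Cyp3a genes through the nuclear receptors PXR (Nr1i2) and CAR (Nr1i3), which pair with RXR and bind repeats of a short core site, and the electrons for the reaction come from the P450 reductase Por. Cyp3a11 is the main adult liver form and the usual readout of PXR. Cyp3a41 and Cyp3a44 are known as forms of female-predominant liver expression, set by the pattern of growth hormone release, Cyp3a16 as a form of early life, and Cyp3a13 as a form found in intestine as well as liver.

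All members but Cyp3a13 lie in one cluster on chromosome 5. The RefSeq order was Cyp3a57, Cyp3a16, Cyp3a41b, Cyp3a41a, Cyp3a44, Cyp3a11, Cyp3a25 and Cyp3a59, with pseudogenes between. The 250 bases before the start of each gene, from RefSeq on GRCm38.p6, are given for the genes the liver results turn on, for Cyp3a16, whose promoter is close to theirs but which was not DE, and for Cyp3a59 from the other end of the cluster. They lie at chr5:145584731-145584980 on the minus strand, chr5:145805875-145806124 on the minus strand, chr5:145469724-145469973 on the minus strand, chr5:145879855-145880104 on the minus strand, and chr5:146079008-146079257 on the plus strand. Capitals mark the core sites AGTTCA and AGGTCA on either strand, so TGAACT and TGACCT are the same letters read on the opposite strand.

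Cyp3a41b: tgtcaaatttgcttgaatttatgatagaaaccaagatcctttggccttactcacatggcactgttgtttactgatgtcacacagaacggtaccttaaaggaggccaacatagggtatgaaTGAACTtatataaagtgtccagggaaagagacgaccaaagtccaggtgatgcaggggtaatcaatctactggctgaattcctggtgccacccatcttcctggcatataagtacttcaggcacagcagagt
Cyp3a44: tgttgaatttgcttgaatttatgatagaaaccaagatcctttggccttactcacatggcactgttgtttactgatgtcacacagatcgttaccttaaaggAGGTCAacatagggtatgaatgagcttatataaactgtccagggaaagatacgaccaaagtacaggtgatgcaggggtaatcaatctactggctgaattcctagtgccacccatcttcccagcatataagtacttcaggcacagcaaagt
Cyp3a16: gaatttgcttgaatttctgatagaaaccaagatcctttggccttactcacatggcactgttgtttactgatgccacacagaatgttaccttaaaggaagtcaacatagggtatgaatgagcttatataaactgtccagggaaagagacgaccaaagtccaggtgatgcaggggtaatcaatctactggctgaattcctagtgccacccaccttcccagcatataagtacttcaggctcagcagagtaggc
Cyp3a11: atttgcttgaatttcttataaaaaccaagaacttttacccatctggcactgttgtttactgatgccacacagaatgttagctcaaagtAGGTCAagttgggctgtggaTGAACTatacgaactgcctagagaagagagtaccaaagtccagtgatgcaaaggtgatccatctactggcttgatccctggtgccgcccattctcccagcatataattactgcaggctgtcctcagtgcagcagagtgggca
Cyp3a59: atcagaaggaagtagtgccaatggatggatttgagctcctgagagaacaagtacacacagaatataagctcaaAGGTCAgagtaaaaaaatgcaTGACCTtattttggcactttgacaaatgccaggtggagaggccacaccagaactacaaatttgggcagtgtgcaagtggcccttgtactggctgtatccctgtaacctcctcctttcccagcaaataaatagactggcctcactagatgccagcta

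Promoters of 2 sets of genes were close in sequence. Those of Cyp3a41b and Cyp3a44 were identical at 94.8% of aligned positions, those of Cyp3a41b and Cyp3a16 at 91.7%, and those of Cyp3a44 and Cyp3a16 at 92.9%. Cyp3a11 shared 72.5% to 76.6% with these genes. Cyp3a25, Cyp3a57 and Cyp3a59 formed the other set with 88.9% to 94.8% among themselves, and all 3 carried AGGTCA followed downstream by TGACCT. The promoter of Cyp3a41a, the member with no row, matched that of Cyp3a41b in 249 of 250 positions, and that of Cyp3a13 shared 52.2% to 57.8% with the other 8.

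Core sites were found in 7 of 9 promoters. AGTTCA occurred on the opposite strand in Cyp3a41b, Cyp3a41a and Cyp3a11, while 11.9% of 32817 mouse promoters of this length held it on either strand. AGGTCA occurred in Cyp3a44, Cyp3a11, Cyp3a25, Cyp3a57 and Cyp3a59, against 14% of all promoters. Neither was present in Cyp3a16 or Cyp3a13. Both strands were also searched for TTGCGCAA and for repeats of the core sites with either spelling in either place, namely direct repeats spaced by 3 bases (as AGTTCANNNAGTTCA) or by 4 (as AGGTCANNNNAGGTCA) and everted repeats spaced by 6 (as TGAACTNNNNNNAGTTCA). No Cyp3a promoter held any of the direct repeats, the everted repeat or TTGCGCAA, and 0.0122%, 0.0244%, 0.00914% and 0.165% of all promoters held them in the order given, spacing 3 first and TTGCGCAA last. These are matches of letters in one window, and enhancers further away were not read.

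Values are the authors' log2 expression values, with 1 probe set kept per gene. Levels of different genes are not compared, since probe sets differ in brightness. Near-identical members may share probes, which was not examined here, so the values of Cyp3a41b, Cyp3a44 and Cyp3a16 in particular may hold signal of one another or of Cyp3a41a. DE stands for an absolute difference of log2 means above 0.7 together with an adjusted p no higher than 0.05 in limma. Members are also counted at an unadjusted limma p under 0.05. The share of all genes at that limit was counted only for HCD+Sim against HCD in brain. Those counts are therefore not read as a result about the family.

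Of the 3 tissues read, liver held the highest values of each of the 8 genes. The batches that the authors adjusted for are not named, so tissue and batch may coincide. In Control mice 7 of 8 genes were DE and higher in liver than in kidney, and the same 7 were DE and higher than in brain, where 6.78% and 15.5% of all 22080 genes were DE in that direction. Cyp3a11 read 11.44 to 11.62 in the Control liver and differed by 7.89 from kidney (standard error 0.12, adjusted p 1.23e-37) and by 7.87 from brain (adjusted p 8.34e-38). Cyp3a59 differed by 7.27 and 7.39, Cyp3a25 by 6.32 and 6.10, Cyp3a13 by 5.55 and 5.48, Cyp3a41b by 4.68 and 4.70, and Cyp3a44 by 2.73 and 2.91, all on the log2 scale with liver higher. Cyp3a57 differed by 1.12 and 1.25. Kidney and brain values of all 8 genes were at most 5.07, under the median of every array, so the size of each difference depends on the dim end of the scale and the genes are not ranked by it.

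Cyp3a16, the form of early life, stood aside in these adult livers. It differed by 0.44 from kidney (adjusted p 0.00182) and by 0.54 from brain (adjusted p 0.000108), under the fold threshold in both. Its 15 liver arrays ran from 3.28 to 3.85, its kidney arrays from 2.73 to 3.14 and its brain arrays from 2.70 to 3.16, so liver did not overlap either tissue. Between kidney and brain none of the 8 genes was DE, where 30% of all genes were, and the adjusted p of the 8 was 0.17 or more (0 of 8 at an unadjusted limma p under 0.05).

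**Figure D1:**
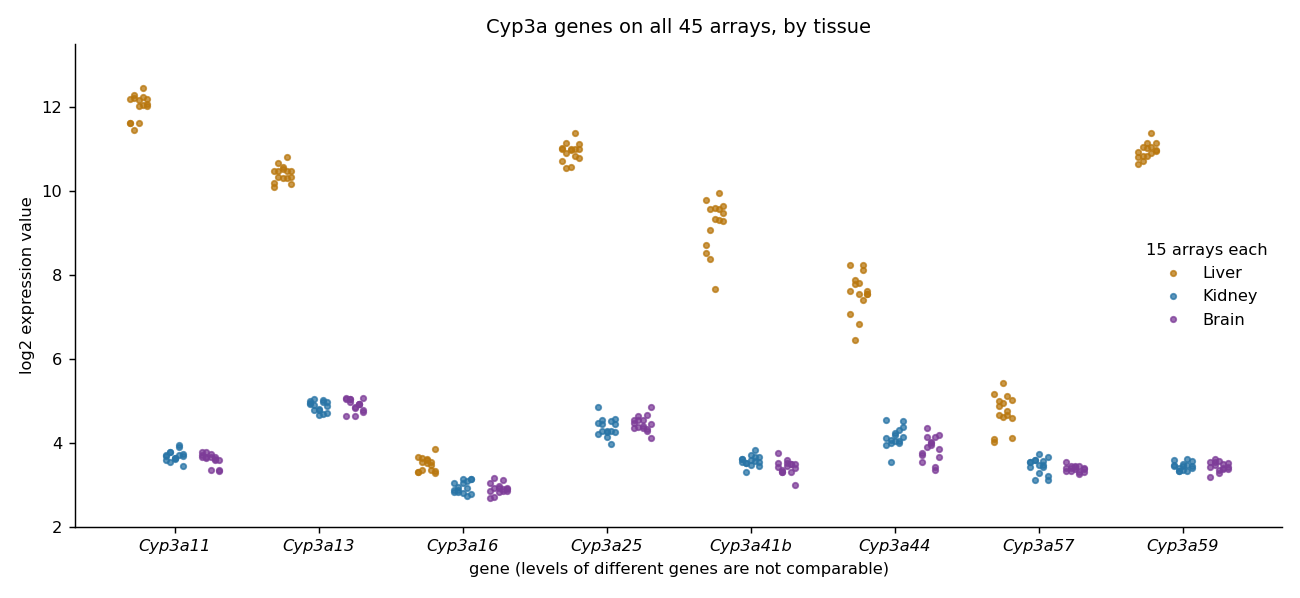
Log2 expression values of the 8 measured Cyp3a genes on all 45 arrays, 15 per tissue, with 1 point per array. Liver points lie above all kidney and brain points of the same gene, from 7.66 to 9.96 against at most 3.82 for Cyp3a41b, while kidney and brain points of each gene share a range.

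In liver the cholesterol diet raised 2 of the 8 genes, Cyp3a41b and Cyp3a44, both known as female-predominant forms. The other 6 did not reach the DE thresholds. HCD against Control gave 54 DE genes (0.245% of all), 23 of them higher (0.104%), and 2 of the 8 Cyp3a genes were among those 23. Bulk RNA cannot tell more transcript per hepatocyte from a change in the share of hepatocytes.

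Cyp3a41b read 8.53, 8.38 and 7.66 in pools A, B and C of Control and 9.57, 9.46 and 9.79 in those of HCD. Every HCD array lay above every Control array. The group means were 8.19 ± 0.47 and 9.61 ± 0.16 (SD, n = 3), a difference of 1.42 (95% interval 1.09 to 1.74), or 2.67-fold, with an adjusted p of 3.18e-07. Control pool C, by the methods a mix of pools A and B, read below both. Without that array the difference was 1.15, and with pools A and B only it was 1.06 (adjusted p 0.000319).

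Cyp3a44 read 7.06, 6.44 and 6.83 in Control and 8.11, 7.62 and 8.23 in HCD. The groups again did not overlap, and pool B was the lowest array in both. The means of 6.78 ± 0.32 and 7.99 ± 0.32 differed by 1.21 (95% interval 0.82 to 1.60), or 2.31-fold (adjusted p 0.000185). In a fit on these 6 arrays alone Cyp3a44 missed the threshold (adjusted p 0.0534) while Cyp3a41b stayed within it (adjusted p 0.0356).

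Cyp3a11, the main adult form, read 11.62, 11.44 and 11.62 in Control and 12.23, 12.08 and 12.19 in HCD, with no overlap. Its difference of 0.61 (95% interval 0.37 to 0.85, 1.53-fold) had an adjusted p of 0.00276 but was under the fold threshold. Fitted on liver alone (15 arrays), its adjusted p was 0.0765. Cyp3a25 read 10.55 to 10.72 in Control and 10.99 to 11.11 in HCD, a difference of 0.43 (adjusted p 0.115). Cyp3a59 read 10.64 to 10.83 and 10.94 to 11.14, a difference of 0.32 (adjusted p 0.0635).

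Cyp3a13, Cyp3a16 and Cyp3a57 were not higher in HCD. Cyp3a13 read 10.318 to 10.48 in Control and 10.17 to 10.317 in HCD, a difference of -0.15 (adjusted p 0.744). Cyp3a16 read 3.29 to 3.52 in Control and 3.28 to 3.54 in HCD, with a 95% interval of -0.25 to 0.23 for its difference. Cyp3a57 was the member with the widest spread in Control, 4.02, 4.67 and 5.41, against 4.67, 4.11 and 4.08 in HCD. Its difference of -0.42 had an adjusted p of 0.409. With pools A and B only it was 0.042, and without Control array A it was -0.76 and DE (adjusted p 0.0163). In 5 of the 8 genes all HCD arrays lay above all Control arrays, as did 6.12% of all genes, and in 1, Cyp3a13, all lay below by a narrow gap, as did 8.77%. The median difference over the 8 was 0.38 beside -0.01 over all genes.

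Markers of other tissues moved in the same comparison. The mean of the skeletal muscle genes was 6.84 to 7.04 on the Control arrays and 6.37 to 6.63 on the HCD arrays, with 0 of 10 genes higher in HCD and 1 DE and lower. The adipose mean was 6.23 to 6.51 and 6.19 to 6.22, the intestinal mean 7.04 to 7.13 and 6.96 to 6.97, and the pancreas mean 5.93 to 6.03 and 5.92 to 6.03. The part of these differences in the Cyp3a values was not tested.

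**Figure D2:**
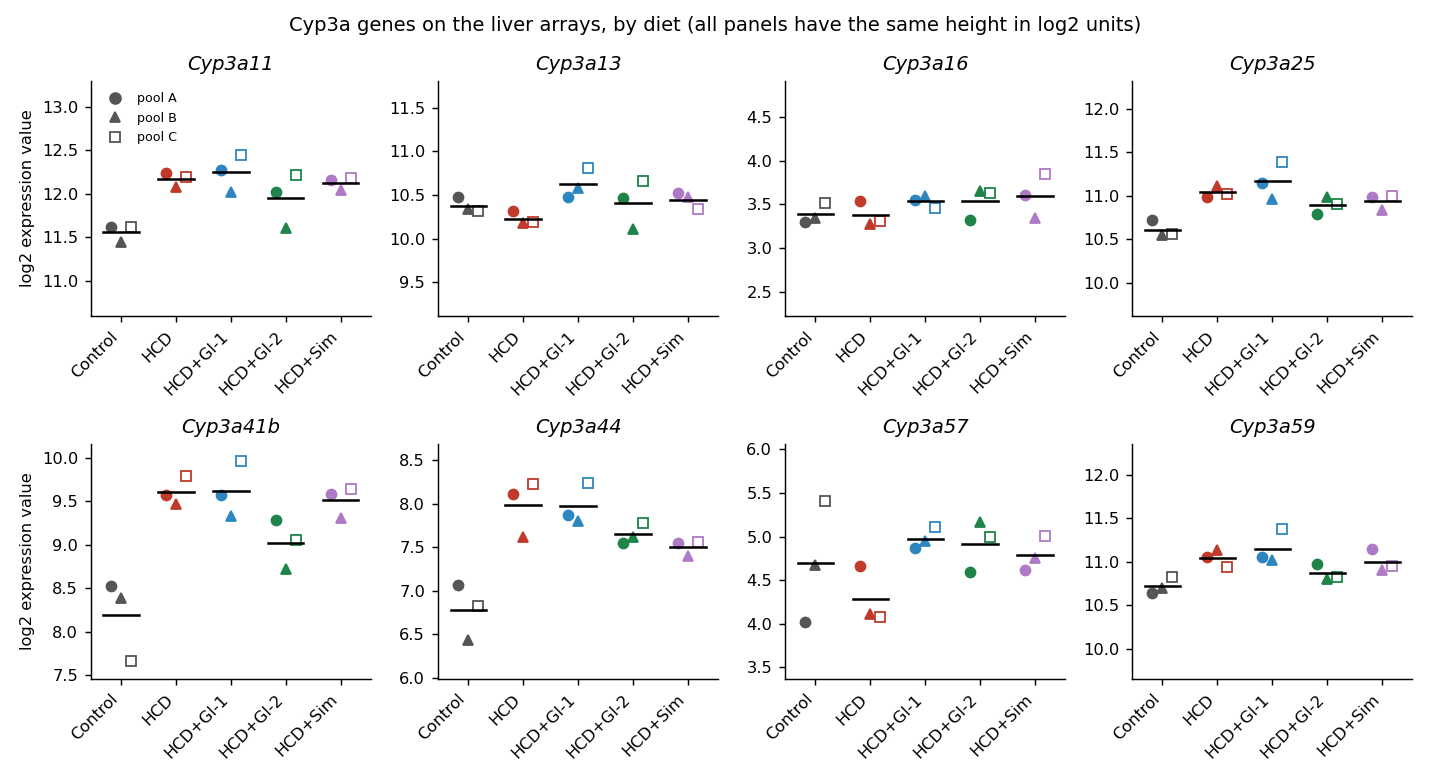
Log2 expression values of the 8 Cyp3a genes on the 15 liver arrays by diet, with filled circles for pool A, filled triangles for pool B, open squares for pool C and a bar at the mean of the 3. Panels have the same height in log2 units. Cyp3a41b and Cyp3a44 sit lowest in Control, and Cyp3a41b is lower in HCD+Gl-2 (8.72 to 9.28) than in HCD (9.46 to 9.79).

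Cyp3a41b and Cyp3a44 lie beside each other among the measured genes, and the differences of Cyp3a11, Cyp3a25 and Cyp3a59 on one side of them were smaller in that order, with Cyp3a16 and Cyp3a57 on the other. The 5 nearest measured genes on each side of the cluster, taken by position alone, had differences between -0.12 and 0.07, and none of the 10 was DE.

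**Figure D3:**
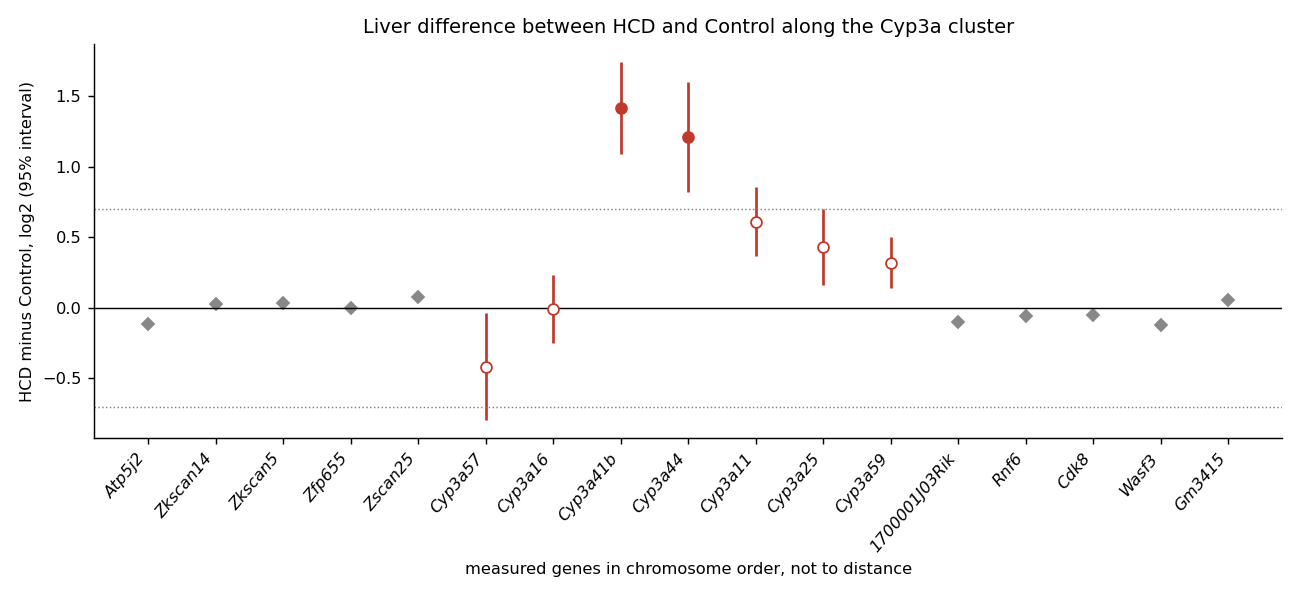
Difference of log2 means between HCD and Control in liver for the 7 measured genes of the Cyp3a cluster (circles with 95% intervals, filled where DE) and the 5 nearest measured genes on each side (diamonds), in chromosome order and not to distance. Dotted lines mark the fold threshold of 0.7. Only Cyp3a41b (1.42) and Cyp3a44 (1.21) are filled, and the flanking genes lie within 0.12 of 0 on the lower side and 0.07 on the upper.

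In kidney of the same diets no member was DE. Cyp3a41b read 3.48 to 3.54 in Control and 3.44 to 3.82 in HCD, and Cyp3a44 read 3.55 to 4.54 and 4.00 to 4.51. Kidney values of all 8 genes lay under the median of every array (at most 5.05), so these arrays give little room to see a response there, and the contrast below rests on the liver difference. The difference between the liver and the kidney responses to HCD, tested as a contrast of both differences, was 1.298 for Cyp3a41b (95% interval 0.84 to 1.76, adjusted p 0.00272) and DE, as for 0.149% of all genes. It was 1.04 for Cyp3a44 (adjusted p 0.0928) and 0.67 for Cyp3a11 (adjusted p 0.0833), neither DE, though Cyp3a44 was DE without Kidney Control array B (1.29) or Liver HCD array B (1.23). With pools A and B only, the contrast for Cyp3a41b was 0.95 and no longer DE (adjusted p 0.0531). For the treatments against HCD, none of the 8 genes was DE by this test, where 0.222%, 0.326% and 0.254% of all genes were, and the lowest adjusted p of the 8 in each was 0.157 with Gl-1, 0.305 with Gl-2 and 0.357 with simvastatin, with 2 of the 8 at an unadjusted limma p under 0.05 each time.

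Each treated cholesterol diet was also set against Control. Cyp3a41b and Cyp3a44 were DE and higher in both HCD+Gl groups and in HCD+Sim, where 0.127% (Gl-1), 0.303% (Gl-2) and 0.217% of all genes were DE in that direction. The comparisons share the Control arrays, so they are not independent of one another or of HCD against Control. Fitted on liver alone, 1 of the 8 genes was DE with Gl-2 and 1 with simvastatin. Fitted on the compared groups alone, there were 1 with Gl-2, 0 with simvastatin and 1 for HCD itself. With pools A and B only there were 0 with Gl-2 and 1 with simvastatin.

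In HCD+Gl-1, Cyp3a41b read 9.57, 9.33 and 9.96, and the difference from Control was 1.43 (standard error 0.16, adjusted p 2.6e-07). Cyp3a44 read 7.87, 7.80 and 8.24, a difference of 1.196 (standard error 0.19, adjusted p 0.000142). No array of either gene overlapped Control. This was also the group in which the adjusted p alone passed for most members, 5 of 8 against 3.58% of all genes. Besides the DE pair these were Cyp3a11 with a difference of 0.69 (adjusted p 0.000393), Cyp3a25 with 0.55 (adjusted p 0.0128) and Cyp3a59 with 0.43 (adjusted p 0.00392). Cyp3a11 read 12.28, 12.03 and 12.45 in HCD+Gl-1 and lay just under the fold threshold. It was DE without Control array A (0.72), without Control array C (0.72) or without HCD+Gl-1 array B (0.81).

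In HCD+Gl-2 both differences from Control were smaller in size. Cyp3a41b read 9.28, 8.72 and 9.06, a difference of 0.83 (95% interval 0.50 to 1.15, adjusted p 0.00117). Cyp3a44 read 7.55, 7.62 and 7.78, a difference of 0.87 (95% interval 0.48 to 1.26, adjusted p 0.00508). Cyp3a11 read 12.02, 11.61 and 12.21, so that array B lay within the Control range, and its difference of 0.39 had an adjusted p of 0.0699. Cyp3a41b was no longer DE without Control array C (0.56) or HCD+Gl-2 array A (0.70, just under the threshold), Cyp3a44 was not DE without Control array B (0.70, adjusted p 0.0804), and with pools A and B only neither was. HCD+Gl-2 arrays A and C are those with high immediate early genes, of which 10 of 12 were DE and higher than in Control, and their part here was not tested.

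In HCD+Sim, Cyp3a41b read 9.59, 9.31 and 9.64, a difference of 1.32 from Control (95% interval 0.99 to 1.64, adjusted p 9.65e-07). Cyp3a44 read 7.55, 7.40 and 7.56, and its difference of 0.73 (95% interval 0.33 to 1.12) was close to both thresholds (adjusted p 0.0418). It was not DE without Control array B (0.56) or C (0.75), nor without any one of the HCD+Sim arrays (0.70 to 0.78). Cyp3a11 read 12.16, 12.05 and 12.18, a difference of 0.57 (adjusted p 0.0047). In this comparison 11 of 15 pancreas genes and 1 of 10 muscle genes were DE and higher, and their part was not tested. Cyp3a41b read 9.64 in HCD+Sim array C, whose pancreas and muscle means were 6.15 and 6.50, beside 9.59 and 9.31 in A and B. That is 1 array, and nothing about the part of those genes is drawn from it.

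Set against HCD itself, the treatments made none of the 8 Cyp3a genes DE, where 0.163% of all genes were DE with Gl-1, 0.303% with Gl-2 and 0.258% with simvastatin. At an unadjusted limma p under 0.05 there were 2 of the 8 in each of the 3 comparisons, without a counted share of all genes. These comparisons share the HCD arrays. Markers moved beside them, with 9 of 12 immediate early genes DE and higher with Gl-2 and 11 of 15 pancreas and 6 of 10 muscle genes DE and higher with simvastatin, and their part was not tested.

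With Gl-2, Cyp3a41b was lower than in HCD on every array (8.72 to 9.28 against 9.46 to 9.79). The difference of -0.59 (95% interval -0.91 to -0.26) passed the adjusted p at 0.0456 but not the fold threshold. Without HCD+Gl-2 array A it was -0.72 and DE, and without HCD+Gl-2 array B it was -0.44. With each array left out, its adjusted p in limma ran from 0.0253 to 0.239. Cyp3a44 differed by -0.34 (95% interval -0.73 to 0.05, adjusted p 0.5), with overlapping arrays. With simvastatin it was Cyp3a44 that lay below HCD on every array (7.40 to 7.56 against 7.62 to 8.23), with a difference of -0.48 and an adjusted p of 0.279, while the interval for Cyp3a41b ran from -0.42 to 0.23. With Gl-1 the intervals were -0.31 to 0.34 for Cyp3a41b and -0.41 to 0.38 for Cyp3a44.

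Cyp3a57 and Cyp3a13 were the members nearest to a rise over HCD. Cyp3a57 read 4.87, 4.94 and 5.11 in HCD+Gl-1, all above the HCD arrays, with a difference of 0.69 (95% interval 0.31 to 1.07, adjusted p 0.0384) that missed the fold threshold by little. It was DE with Gl-1 without HCD array A (0.88) or HCD+Gl-1 array B (0.70), and with Gl-2, where its difference was 0.63 (adjusted p 0.08), without HCD array A (0.82) or HCD+Gl-2 array A (0.80). In the other direction it fell to 0.59 with Gl-1 without HCD array C, and to 0.51 with Gl-2 without HCD+Gl-2 array B. With each array left out, its adjusted p in limma reached 0.2 with Gl-1 and 0.269 with Gl-2. Its mean over the liver arrays, 4.73, lay under the median of the liver means. With simvastatin its difference was 0.51 (adjusted p 0.221). HCD was the lowest group of this gene, and no treatment differed from Control, with adjusted p of 0.476 or more. Cyp3a13 read 10.47, 10.58 and 10.81 in HCD+Gl-1 against 10.17 to 10.32 in HCD, a difference of 0.39 (adjusted p 0.0518).

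**Figure D4:**
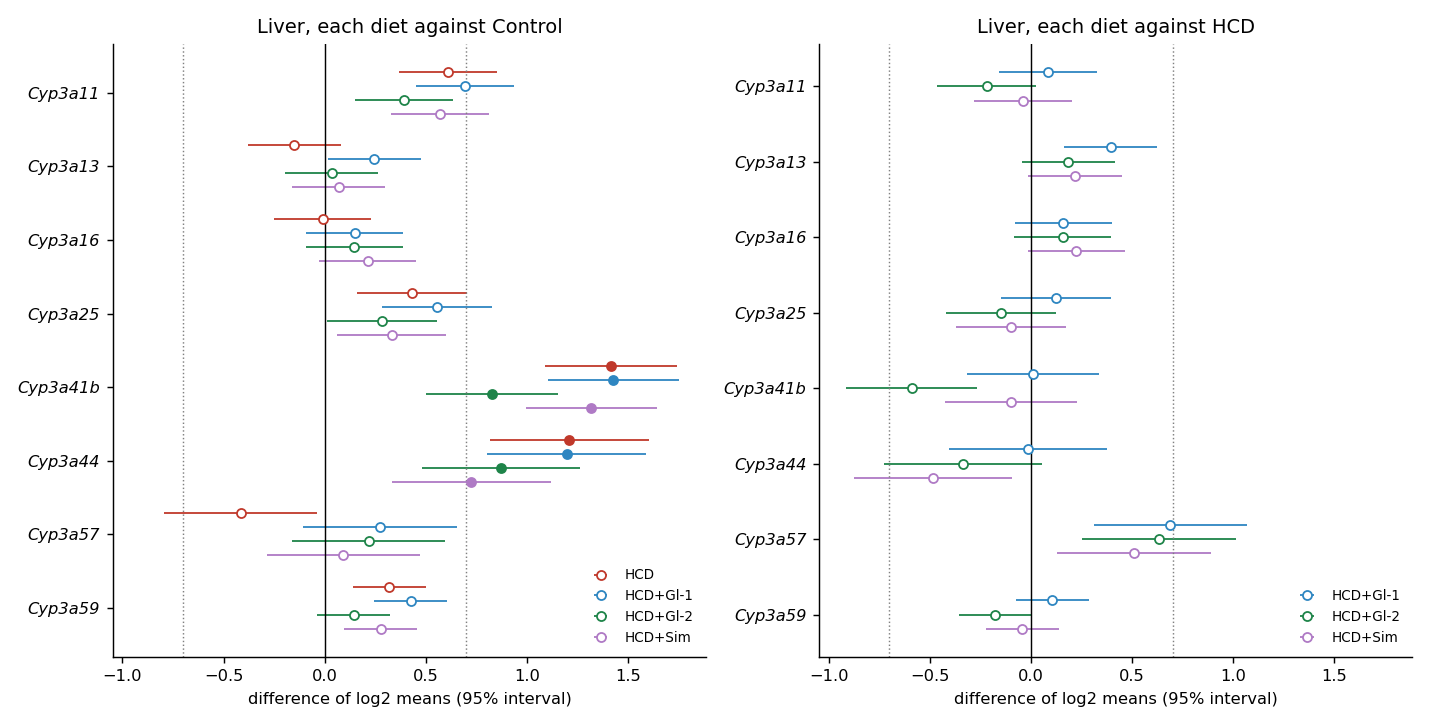
Differences of log2 means of the 8 Cyp3a genes in liver, each diet against Control on the left and each treatment against HCD on the right, with 95% intervals. Filled points are DE and dotted lines mark the fold threshold of 0.7. On the left the filled points belong to Cyp3a41b and Cyp3a44 in all 4 diets, and on the right no point is filled.

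Gl-2 and Gl-1 were also compared directly. None of the 8 differences was above 0, while 56% of all genes had one above 0, and none was DE (0.172% of all genes were). At an unadjusted limma p under 0.05 there were 4 of the 8, without a counted share of all genes. The adjusted p alone passed for 1 of the 8, against 3.94% of all genes. Cyp3a41b differed by -0.60 (95% interval -0.93 to -0.28, adjusted p 0.0275), with all HCD+Gl-2 arrays under all HCD+Gl-1 arrays. It was DE without HCD+Gl-1 array B (-0.74) or HCD+Gl-2 array A (-0.73), while without HCD+Gl-1 array C it was -0.43. With each array left out, its adjusted p in limma ran from 0.00349 to 0.296. Cyp3a59 differed by -0.28 (adjusted p 0.062) and Cyp3a11 by -0.30 (adjusted p 0.141). HCD+Gl-2 against HCD+Sim gave -0.49 for Cyp3a41b (adjusted p 0.131) and no DE member of the family, where 0.285% of all genes were DE. HCD+Gl-1 against HCD+Sim also gave none (0.249% of all genes), with an adjusted p of 0.15 or more for all 8. At an unadjusted limma p under 0.05 there was 1 of the 8 in each.

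Kidney and brain held no DE Cyp3a gene in any of the 4 diet comparisons of each tissue. In kidney 0.0408% of all genes were DE for HCD against Control and 0.131%, 0.335% and 0.14% for Gl-1, Gl-2 and simvastatin against HCD. In brain the shares were 0.0317%, 0.00906%, 0.0226% and 0%, the last with 1220 genes at an unadjusted p under 0.05. At that unadjusted limit 0 of the 8 passed in the kidney comparisons and in brain HCD against Control, and 1 of 8 in each brain treatment comparison. One brain value is Cyp3a44, which read 4.34, 4.02 and 4.13 in HCD+Gl-1 and 3.36, 3.67 and 3.71 in HCD, a difference of 0.58 with an adjusted p of 0.612. Cyp3a11 ranged from 3.46 to 3.96 over all kidney arrays and from 3.33 to 3.78 over all brain arrays, and Cyp3a59 from 3.32 to 3.61 and from 3.18 to 3.62.

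Transcripts of the receptors that switch the family were not DE in HCD, and receptor activity was not measured. PXR (Nr1i2) read 9.25, 9.31 and 9.20 in Control liver and 9.50, 9.19 and 9.48 in HCD, a difference of 0.13 (95% interval -0.07 to 0.34, adjusted p 0.744). CAR (Nr1i3) differed by 0.18 (95% interval -0.06 to 0.41, adjusted p 0.681). In HCD+Gl-2 CAR read 10.81, 10.59 and 11.02 against 10.44, 10.27 and 10.41 in HCD, a difference of 0.43 (adjusted p 0.0431) under the fold threshold. None of 12 genes of a list of PXR, CAR and RXR regulators was DE in any of the 4 liver comparisons with Control or the 3 with HCD. Under the fold threshold, CAR was higher in HCD+Gl-2 than in Control by 0.61 (95% interval 0.37 to 0.84, adjusted p 0.00101). Ppargc1a, of the same list, differed by -0.41 in HCD+Gl-1 against Control (adjusted p 0.00286). Values of Nr1i2, Nr1i3 and Ppargc1a, and those of Por, Pgrmc1 and Cyb5b where not DE, are given for their role in the pathway and not by the naming rule.

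Other target genes of PXR and CAR, on a list chosen with earlier results of these data known, mostly had differences above 0 in HCD. Of 31 listed, 26 were measured, 25 of the 26 had a difference above 0 (45.8% of all genes did) and 4 were DE and higher with none lower. The median difference was 0.37, beside -0.01 over all genes. The 4 were Cyp2b9 (3.20), Abcc3, a transporter for conjugates (1.07, adjusted p 4.73e-12), Cyp2b10, the usual readout of CAR (0.86, adjusted p 0.000704), and Cyp2c38 (0.79, adjusted p 0.0147). Cyp2b10 read 6.25, 6.04 and 6.44 in Control and 7.20, 6.70 and 7.41 in HCD.

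The same list against HCD held 2 DE genes lower and none higher with Gl-1, 2 lower and none higher with Gl-2, and none in either direction with simvastatin. Of all genes 0.0679% were DE and lower with Gl-1 and 0.0951% with Gl-2. Direction counts of this list against HCD are not given here. Cyp2b9 and Cyp2c38 were the lower genes in both, by -2.08 and -0.86 with Gl-1 and by -3.17 and -0.95 with Gl-2. Cyp2b9 read 6.41, 6.07 and 6.96 in HCD+Gl-1 and 5.34, 5.45 and 5.37 in HCD+Gl-2, beside 8.71, 7.88 and 9.08 in HCD and 5.28, 5.17 and 5.62 in Control. Cyp3a41b in HCD+Gl-2, given above, lay above all of its Control arrays, and Cyp2b9 in HCD+Gl-2 lay within its Control range. Whether the responses of these genes to Gl-2 differ was not tested.

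**Figure D5:**
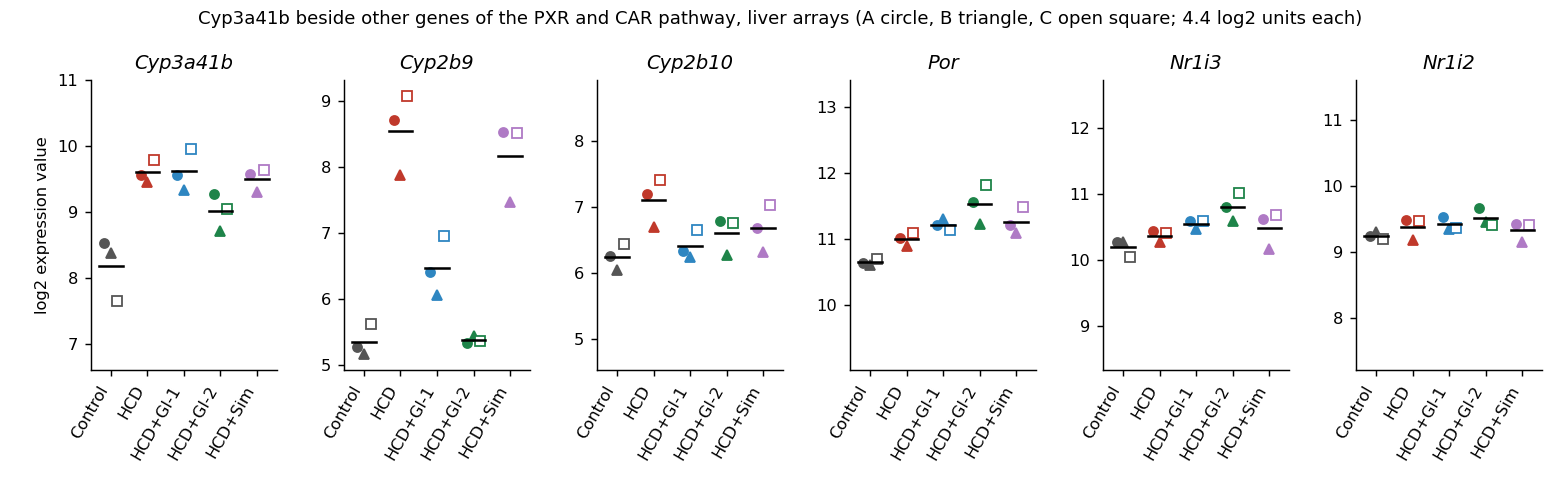
Log2 expression values of Cyp3a41b, Cyp2b9, Cyp2b10, Por, Nr1i3 and Nr1i2 on the 15 liver arrays by diet, with circles for pool A, triangles for pool B, open squares for pool C and a bar at the mean. Cyp2b9 is at 5.34 to 5.45 in HCD+Gl-2 and 7.88 to 9.08 in HCD, Cyp3a41b at 8.72 to 9.28 and 9.46 to 9.79, and Nr1i2 lies between 9.16 and 9.67 on all 15 arrays.

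Transcripts of Por and its partners in electron supply were read on the same arrays. Por read 10.64, 10.61 and 10.70 in Control, 11.02, 10.90 and 11.10 in HCD and 11.56, 11.23 and 11.83 in HCD+Gl-2. It was DE in HCD+Gl-2 against Control (0.89, adjusted p 1.47e-07), the 1 DE gene of 6 in that list, while none of the 6 was DE in the other diets against Control. Under the fold threshold, Por was also higher than Control with Gl-1 (0.57, adjusted p 0.000558) and with simvastatin (0.62, adjusted p 0.000169). In HCD its difference was 0.35 (adjusted p 0.0739). Pgrmc1 was higher than Control with Gl-1 (0.52, adjusted p 0.00105) and with Gl-2 (0.34, adjusted p 0.0446), also under the fold threshold. Against HCD no gene of this list was DE with any treatment, and Por with Gl-2 differed by 0.54 (adjusted p 0.00154). Cyb5b, a mitochondrial form of cytochrome b5, went the other way under the fold threshold, by -0.45 with Gl-2 (adjusted p 0.00049) and by -0.39 with simvastatin (adjusted p 0.00477). Against Control, Cyb5b differed by -0.27 with Gl-2 (adjusted p 0.0482).

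Genes known for sex bias in mouse liver were examined beside Cyp3a41b and Cyp3a44. Of 18 measured female-biased genes outside Cyp3a, HCD against Control gave 2 higher (Cyp2b9 and Cyp2b10, both also in the target list) and 2 lower, Cyp17a1, a steroid hydroxylase (-1.14, adjusted p 0.000333), and Abcd2, a peroxisomal transporter (-1.02, adjusted p 0.000245). In this list 13 of 18 lay above 0 (45.8% of all genes did), with a median of 0.08. Of 21 male-biased genes 1 was lower, Moxd1 (-2.34, adjusted p 0.000836), 4 lay above 0 and the median was -0.09. None of 9 genes of the growth hormone axis was DE in HCD.

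With treatments against HCD the female-biased list held 1 gene lower with Gl-1, 1 lower with Gl-2 and 1 higher with simvastatin (Acot3, 0.89, adjusted p 0.0263), the lower one being Cyp2b9 both times. The male-biased list held 2 genes higher with Gl-1, Moxd1 (2.56) and Cyp7b1, an oxysterol hydroxylase (0.98), 1 higher with Gl-2, Moxd1 (2.24), and none with simvastatin. With Gl-1 against HCD, 20 of the 21 male-biased genes lay above 0 (median 0.18) and 5 of the 18 female-biased ones did (median -0.12), beside 46.3% of all genes. This comparison shares the HCD arrays with HCD against Control. Direction counts of these lists with Gl-2 and with simvastatin are not given here, so the pattern is not called particular to Gl-1. In HCD+Gl-2 against Control, Elovl3 of the male-biased list was DE and lower (-0.77, adjusted p 0.00475 in limma). Cyp17a1 (-1.25) and Abcd2 (-1.01) of the female-biased list were also DE and lower there. In the growth hormone list Cish, a feedback inhibitor of the receptor, was DE in HCD+Gl-2 against Control (0.82, adjusted p 0.00262).

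Of 12 listed bile acid and sterol genes, 3 were DE and higher in HCD. These were Cyp7a1, the rate-limiting enzyme of bile acid synthesis (1.02, adjusted p 0.000264), and the sterol exporter subunits Abcg5 (0.92, adjusted p 1.34e-06) and Abcg8 (0.88, adjusted p 8.65e-10). The median of the 12 was -0.02 and 5 lay above 0. Cyp7a1 was also DE and higher than Control in HCD+Gl-1 (0.85) and HCD+Gl-2 (1.05).

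Within liver the members varied together in part. Over the 15 arrays Cyp3a11, Cyp3a25, Cyp3a41b, Cyp3a44 and Cyp3a59 had pairwise Pearson r of 0.68 to 0.88, the highest between Cyp3a11 and Cyp3a41b. After the group means were removed those 10 coefficients lay between 0.07 and 0.57. Cyp3a11 and Cyp3a13 had 0.45 over all arrays and 0.78 within groups. Cyp3a57 went with Cyp3a16 (0.67, and 0.65 within groups) and not with Cyp3a41b (-0.25, and -0.62 within groups). By the methods the arrays share pools and, within a group, RNA, and no p is given.

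Outside the family, the genes most like Cyp3a11 over the 15 liver arrays were Aldh3a2 (Pearson r 0.88), Fmo5 (0.87), Abca1 (0.87), Aldh1a1 (0.87) and Chchd4 (0.87). Those most like Cyp3a41b were Ptprd (0.86), Cd36 (0.85), Aldh3a2 (0.85), Keg1 (0.84) and Fam63b (0.83). Those most like Cyp3a44 were Sulf2 (0.90), Srpk2 (0.88), Birc2 (0.88), Fmo5 (0.87) and Pgrmc1 (0.86). After the group means were removed, r ran from 0.67 (Aldh1a1) to 0.87 (Fmo5) for Cyp3a11, from 0.24 (Keg1) and 0.45 (Fam63b) to 0.72 (Cd36) for Cyp3a41b, and from 0.39 (Srpk2) and 0.48 (Fmo5) to 0.85 (Birc2) for Cyp3a44. Fmo5 and Aldh1a1 belong to the target list, Cd36 to the target and female-biased lists, and Pgrmc1 to the partners of P450.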

How the data were processed

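The authors hybridised pooled RNA to Affymetrix Mouse Gene ST v1.0 arrays, corrected background by RMA, quantile normalized, adjusted with ComBat for batches that the sources used here do not name, and kept for each gene its probe set of widest interquartile range. The deposited values are on the log2 scale. Versions of these tools and the array's genome build are not given in the sources used here. The table holds 22080 rows, of which 13 carry date-like names.

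Tissue, diet and pool letter came from each array's labels. One linear model with 15 group means over all 45 arrays was fitted with limma 3.58.1 in R 4.3.3 (prior degrees of freedom 7.34, residual 30), with Benjamini-Hochberg adjustment over all rows within a comparison and the study's thresholds of 0.7 and 0.05. It was tested on simulated data first. In all, 25 comparisons were made. An exact permutation test of 3 arrays against 3 cannot go below 0.1 (two-sided).

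The members and gene lists were chosen with earlier results of these data known. Named genes are the members, at most 6 DE genes of each list per comparison by absolute difference, and the 5 genes most correlated with Cyp3a11, Cyp3a41b and Cyp3a44. Deviations of same-lettered arrays correlated above 0.1 for all 3 letters in 2 of 18 comparisons (HCD+Gl-2 with HCD+Gl-1 and with HCD+Sim in liver). In liver HCD against Control the coefficients were 0.06, 0.12 and 0.07, and each array matched its own letter best. The main fit did not pair arrays. Promoters were read and aligned with Biopython 1.88 in Python 3.11.15, and figures drawn with matplotlib 3.10.9. Protein sequences were not used here. Alternatives were a fit on the tissue or on the compared groups alone, pools A and B alone, the pool letter as a block, 2 filters on dim genes (one added after the data were seen), quantile normalization within tissues, trend and robust moderation, no fold threshold, and each array left out.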

Additional observations from a re-analysis of the deposited data

Results flagged for a closer look

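For Cyp3a41b the contrast of its HCD differences in liver and in kidney was past both thresholds at 1.298 (adjusted p 0.00272 in limma), with liver 1.42 higher in HCD than in Control. All 3 HCD arrays lay above all 3 Control arrays in liver and overlapped them in kidney. The gene read 3.30 to 3.82 on all kidney arrays, at their dim end, so a kidney response may not have been measurable and the contrast is close to the liver difference alone. With pools A and B only the difference was 0.95 (adjusted p 0.0531), and with each array left out it ran from 1.03 to 1.47.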

How the results depend on the processing

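The 25 counts of DE Cyp3a genes and 48 single differences gave 933 values under the alternatives, 349 of them counts. Of these counts 312 equalled the reported one, 8 more lay within 1.5 times of it and 29 did not. Of the differences 551 kept their direction and side of the thresholds, 18 were no longer past them and 14 came past them. One reversed: Cyp3a57 in liver HCD against Control was 0.042 with pools A and B only. The fit on the compared groups left 1 DE gene in HCD, 1 in HCD+Gl-2 and 0 in HCD+Sim against Control. The fit on the liver arrays left 1 in HCD+Gl-2 and 1 in HCD+Sim, and pools A and B alone left 0 and 1, and 0 for the contrast of liver and kidney in HCD. With no fold threshold the counts were 5 for HCD+Gl-1 against Control and 1 each for HCD+Gl-1 and HCD+Gl-2 against HCD and for HCD+Gl-2 against HCD+Gl-1. Quantile normalization within liver gave 1 for HCD+Gl-1 against HCD (Cyp3a57, 0.71). With each array left out, counts ran from 2 to 3 for HCD and for HCD+Gl-1 against Control, 1 to 2 for HCD+Gl-2 and for HCD+Sim against Control, 0 to 1 for HCD+Gl-1 against HCD, 0 to 2 for HCD+Gl-2 against HCD, 0 to 1 for HCD+Gl-2 against HCD+Gl-1, and 1 to 2 for the contrast of liver and kidney in HCD, where Cyp3a44 became DE without Kidney Control array B (1.29) or Liver HCD array B (1.23). Without Control array A, Cyp3a57 was DE in HCD (-0.76). Beyond the construction of each alternative, the cause was not tested. No Cyp3a gene reached the median (6.98) of means over all 45 arrays, so that filter gave no values. A filter on liver means, added later, kept 6 of the 8 and moved no count or call. With the pool letter as a replicate block no call changed, and Cyp3a41b and Cyp3a44 in HCD kept adjusted p of 1.33e-06 and 7.43e-05. The numbers mark pools, and the correlation of same-lettered deviations ran from -0.27 to 0.27 over 18 comparisons. The 3 arrays per group limit the precision, and values near 3 to 5 lie at the dim end of the arrays.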
